A study of Mus musculus with 8 samples.

Results

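The genes of the SWI/SNF chromatin remodelling complexes and of 3 related remodellers were examined as places where reprogramming factors bound. A list of 31 genes, taken by symbol from the mm10 annotation, was set against the 21755 protein-coding genes of chromosomes 1 to 19 and X. A peak was assigned to a gene when its summit, the position with the most tags, lay in the gene body or within 2 kb of any annotated start site. A summit within 2 kb of a start is called a promoter summit. By this rule 956 of 661009 peaks were assigned to the 31 genes, and each gene held a summit in at least 1 of the 8 libraries, against 83.1% of all protein-coding genes.

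SWI/SNF complexes use the energy of ATP to slide or evict nucleosomes, and their ATPase is either BRG1 (encoded by Smarca4) or BRM (Smarca2). In canonical BAF and PBAF the same core of SMARCB1, SMARCC, SMARCD, SMARCE1 and actin-related proteins occurs with different partners. These are ARID1A or ARID1B and a DPF protein in canonical BAF, and ARID2, PBRM1, PHF10 and BRD7 in PBAF. BRD9 is a subunit of the non-canonical complex. Embryonic stem cells and neurons assemble different subunit forms, and DPF1, DPF3, ACTL6B and SS18L1 are the forms known from neuronal complexes. SS18, a subunit of canonical and non-canonical BAF, contacts BRG1 through the stretch that the study fused to transcription factors. Of the genes listed, Smarca1 and Smarca5 encode ATPases of ISWI remodellers and Smarcad1 encodes a separate ATPase. They are kept because the list holds them, and they are not SWI/SNF subunits.

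Mouse embryonic fibroblasts (MEFs) carrying Flag-tagged Nanog, Oct4, Sox2 or Nr5a2 were profiled by CUT&Tag, in which an antibody directs the transposase Tn5 to its target so that DNA near bound sites is cut and tagged. The 8 groups were native Nanog, NanogBiD, native Oct4, Oct4BiD, native Sox2, Sox2BiD, native Nr5a2 and Nr5a2BiD, where BiD is a 70-residue stretch of SS18 joined to the factor's N-terminal end. Per the study's methods, the MEFs came from embryos of a cross of OG2 with 129 mice and the factors were delivered with retroviruses. All libraries were taken at day 3 of reprogramming with a Flag antibody, which sees the delivered factor and not the endogenous one. The library titles name 1 factor each, and which other factors the same cells received is not given for them. Each group held 1 library, and the study's reporting summary says that the experiment was done once, while its methods speak of replicates merged before peaks were called. The lists do not say which of the 2 statements holds for them. No difference below therefore has a replicate check or a p-value, and intervals cover counting error only. In a mixed culture, binding in fewer cells and weaker binding per cell cannot be told apart.

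The lists held from 54794 peaks (native Oct4) to 120594 peaks (Sox2BiD). The form with more peaks was the fusion for Nanog, Oct4 and Sox2 and the native form for Nr5a2. Depth cannot be read from the lists themselves. By the read totals in the study's reporting summary, the form with more peaks had fewer uniquely mapped read pairs for Oct4, Sox2 and Nr5a2, and more for Nanog. Of 6 fibroblast genes, 4 to 6 had a promoter summit in each library, against 25.4% (native Sox2) to 64.0% (native Nr5a2) of all protein-coding genes. No expression was measured, so these counts do not establish the cell type.

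The sequences below are the summits that carry the comparisons, each the 101 bases centred on a summit, from the plus strand of GRCm38 (mm10). The first 5 are each the highest-scoring summit of their library at these genes that held the consensus of the library's own factor within 50 bp. Capitals mark the match, to GCCATTA for Nanog, ATGCAAAT for Oct4, CCATTGTT for Sox2 and TCAAGGTCA, TCAAGGCCA, CCAAGGTCA or CCAAGGCCA for Nr5a2, on either strand. Native Nanog had no such summit, that of native Nr5a2 is not shown, and 1 sequence stands for both Sox2 libraries, whose best summits lay at the same intronic site.
Smarca2 intron, NanogBiD, chr19:26679931-26680031: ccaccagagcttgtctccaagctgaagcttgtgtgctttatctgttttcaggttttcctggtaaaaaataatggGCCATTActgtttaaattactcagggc
Arid2 intron, native Oct4, chr15:96386909-96387009: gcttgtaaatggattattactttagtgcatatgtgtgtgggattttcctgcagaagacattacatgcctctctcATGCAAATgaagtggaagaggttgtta
Bcl11a intron, Oct4BiD, chr11:24111140-24111240: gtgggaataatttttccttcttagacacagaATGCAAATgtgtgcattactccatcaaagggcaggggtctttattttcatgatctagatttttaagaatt
Arid1b intron, Sox2BiD, chr17:5293791-5293891: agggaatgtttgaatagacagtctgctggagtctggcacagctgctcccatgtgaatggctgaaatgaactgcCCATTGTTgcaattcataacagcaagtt
Arid1b intron, Nr5a2BiD, chr17:5157814-5157914: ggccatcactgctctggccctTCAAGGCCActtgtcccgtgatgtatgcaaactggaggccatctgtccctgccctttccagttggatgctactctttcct

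The next 4 sequences are sites at these genes that had a peak with a fusion and none with the native form of the same factor. The first 3 had the highest score among such peaks of their library. The last is the intronic Arid1b site bound by all 4 fusions and by no native factor, which was picked after its values were seen. None of the 4 windows held the consensus of the library's own factor, which says only that those letters are not within 50 bp of the summit.
Smarca1 intron, NanogBiD, chrX:47885673-47885773: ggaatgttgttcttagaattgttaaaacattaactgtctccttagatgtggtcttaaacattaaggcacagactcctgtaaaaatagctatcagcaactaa
Bcl11b intron, Oct4BiD, chr12:107970832-107970932: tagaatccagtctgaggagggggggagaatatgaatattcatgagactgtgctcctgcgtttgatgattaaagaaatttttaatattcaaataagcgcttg
Smarcd3 intron, Nr5a2BiD, chr5:24604935-24605035: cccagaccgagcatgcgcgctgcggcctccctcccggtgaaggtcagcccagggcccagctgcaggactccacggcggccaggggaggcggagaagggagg
Arid1b intron, Oct4BiD, chr17:5007462-5007562: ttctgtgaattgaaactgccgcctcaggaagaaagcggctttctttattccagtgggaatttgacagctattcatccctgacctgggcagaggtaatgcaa

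The genes held between 72 and 199 summits per library. The counts were 82 with native Nanog and 102 with NanogBiD, 72 with native Oct4 and 139 with Oct4BiD, 72 with native Sox2 and 161 with Sox2BiD, and 199 with native Nr5a2 and 129 with Nr5a2BiD. The fusion had more summits for Nanog, Oct4 and Sox2, and fewer for Nr5a2. The log2 ratio of BiD over native was -0.63 for Nr5a2 (95% interval -0.96 to -0.30), 1.16 for Sox2 (0.75 to 1.58), 0.95 for Oct4 (0.53 to 1.38) and 0.31 for Nanog (-0.12 to 0.75). Over all peaks the log2 ratio of the same libraries was -0.50, 1.05, 0.78 and 0.04 in that order. For Nr5a2, Sox2 and Oct4 most of the ratio at these genes was thus that of the whole lists. For Nanog, whose lists were of nearly equal length, the interval at these genes held the 0.04 of the whole lists, so the 2 were not distinguishable.

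Relative to the length of each list, the forms of a factor were not distinguishable at this depth. Summits at the 31 genes per 10000 peaks were 11.2 (8.88 to 13.9) for native Nanog and 13.5 (11 to 16.3) for NanogBiD. They were 13.1 (10.3 to 16.5) for native Oct4 and 14.8 (12.4 to 17.5) for Oct4BiD. For native Sox2 the value was 12.4 (9.69 to 15.6) and for Sox2BiD 13.4 (11.4 to 15.6). The log2 ratio of these values was -0.12 for Nr5a2 (-0.45 to 0.20), 0.11 for Sox2 (-0.30 to 0.53), 0.17 for Oct4 (-0.25 to 0.60) and 0.27 for Nanog (-0.16 to 0.71), and each interval holds 0. Over summits at all protein-coding genes the log2 ratio per 10000 peaks was -0.01, 0.09, 0.02 and 0.08 in that order.

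The Nr5a2 libraries had the highest values, 18.4 per 10000 peaks (16 to 21.2) for the native form and 16.9 (14.1 to 20.1) for Nr5a2BiD. Without Dpf3, left out after its counts were seen, they were 15.6 (13.4 to 18.2) and 14.3 (11.7 to 17.2). The other libraries then ranged from 10.9 (native Nanog) to 14.4 (Oct4BiD). The intervals of both Nr5a2 libraries overlapped that of Oct4BiD with Dpf3 kept (12.4 to 17.5) and without it (12 to 17).

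**Figure D1:**
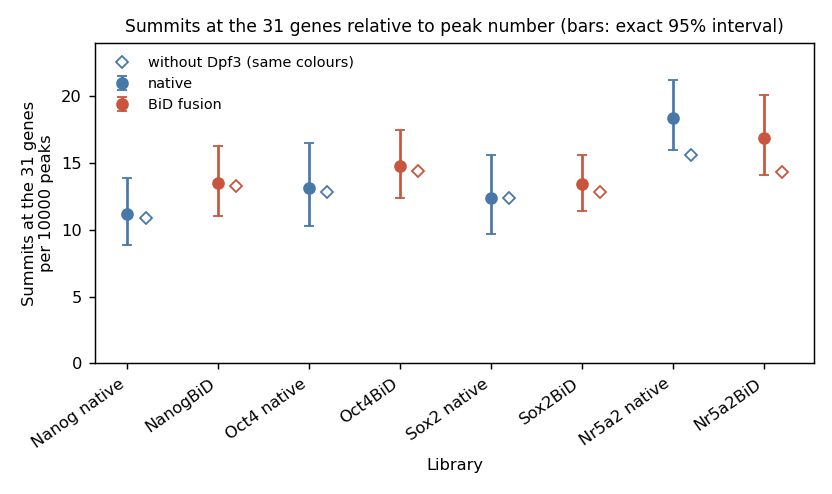
Summits at the 31 genes per 10000 peaks of each library (y axis), for native (blue) and BiD (red) forms, with exact 95% intervals for counting error. Open diamonds leave out Dpf3. The intervals of the forms of each factor overlap. The Nr5a2 libraries are highest with Dpf3, at 18.4 and 16.9, and without it native Nr5a2 is at 15.6, Oct4BiD at 14.4 and Nr5a2BiD at 14.3.

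The 31 genes are long, with a median of 33.6 kb against 17.4 kb over all protein-coding genes, and they have a median of 6 annotated start sites against 3. Both properties give more room for a summit. Per 100 kb of gene and flank, the 31 genes held 3.71 summits with native Nanog and 4.62 with NanogBiD, where all protein-coding genes held 3.83 and 4.17. With Oct4 the values were 3.26 native and 6.29 BiD against 2.9 and 5.06, and with Sox2 they were 3.26 and 7.29 against 2.78 and 6.14. With Nr5a2 they were 9.01 native and 5.84 BiD against 6.05 and 4.24. Native Nanog was the library in which the 31 genes were less dense in summits than all genes. With Dpf3 left out, the native Nanog value was 4.14 per 100 kb, above the 3.83 of all genes.

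Start sites of these genes were bound more often than those of all genes in each of the 8 libraries. With native Nanog 26 of 31 genes had a promoter summit, against 51.6% of all protein-coding genes, and with NanogBiD 25 of 31, against 55%. With native Oct4 it was 19 genes (39.3% of all genes) and with Oct4BiD 28 genes (56.4%). The difference between forms was widest for Sox2, with 13 genes for the native form (25.4% of all genes) and 29 genes for Sox2BiD (53.8%). With each list limited to its 20000 highest scores both Sox2 forms had 4, and with scores of at least 100 they had 5 and 22. With native Nr5a2 26 genes (64.0%) and with Nr5a2BiD 24 genes (54.4%) had one. How far start site number and gene length account for the share at these genes was not tested.

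A promoter summit was present in all 8 libraries at 10 of the 31 genes, against 17.4% of all protein-coding genes: Smarca4, Smarca2, Smarca5, Smarcc1, Smarcd1, Smarcd2, Arid1b, Brd9, Actl6a and Bcl7c. Of the 31 genes, Smarcc1, Brd9, Pbrm1 and Ss18l1 each have a start within 2 kb of the start of another protein-coding gene. Some of their promoter summits may therefore belong to the neighbour. Actl6b, which encodes the neuronal actin-related subunit, was the 1 gene with no promoter summit in any library, against 23.7% of all genes. It held an intronic site at chr5:137567062-137569252 with 86 tags in native Nr5a2 and 64 in Nr5a2BiD and with no peak for another factor. Its ubiquitous counterpart Actl6a had a peak over its start in each, with native and BiD summit heights of 37 and 51 tags for Nanog, 32 and 39 tags for Oct4, 30 and 33 tags for Sox2, and 32 and 29 tags for Nr5a2.

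**Figure D2:**
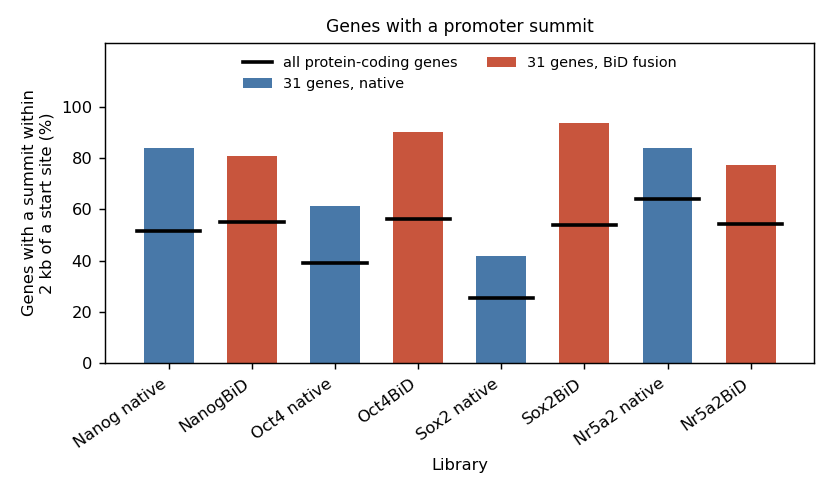
Share of genes with a summit within 2 kb of a start site (y axis, %), for the 31 genes (bars, native in blue and BiD in red) and for all 21755 protein-coding genes (black lines). Each bar is above its line, and the forms differ most for Sox2, with 13 and 29 of 31 genes.

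Genes were compared between forms by a fixed size rule, since no test was possible: a gene was called higher or lower with BiD when its summit numbers differed by at least 2-fold and by at least 2 summits. For Nanog 4 genes were called higher and none lower, against 4.01% and 1.56% of all genes. The 4 were Smarca4, Smarca1, Smarcd3 and Bcl11a. For Oct4 13 were called higher and none lower, against 17.3% and 0.446%. For Sox2 18 were called higher and none lower, against 26.9% and 0.110%. For Nr5a2 none was called higher and 10 were called lower, against 0.308% and 11.7%.

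A gene needs at least 2 summits in a form to be called, and long genes meet that more often. Among the genes that did, 4 of 21 were called higher for Nanog (10.3% of all such genes), 13 of 26 for Oct4 (40.1%) and 18 of 28 for Sox2 (59.6%), and 10 of 26 were called lower for Nr5a2 (22.4%). When summit numbers were scaled to the shorter peak list of each factor, 4 calls were left, all higher with BiD. They were Smarca4 for Nanog (0.988% of all genes called higher and 1.56% lower), Smarca1 and Smarcad1 for Oct4 (1.68% and 1.12%) and Dpf3 for Sox2 (1.90% and 0.974%). For Nr5a2 no gene was called in either direction on that scale, where 0.473% of all genes were higher and 1.86% lower. On unscaled numbers 9 of the 31 genes were called lower for Nr5a2 and higher for at least 1 other factor, against 7.07% of all genes. Each of the 4 was also called on unscaled numbers. For Nanog the scaling was slight, and Smarca1, Smarcd3 and Bcl11a lost their calls by falling just under the rule's limits.

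**Figure D3:**
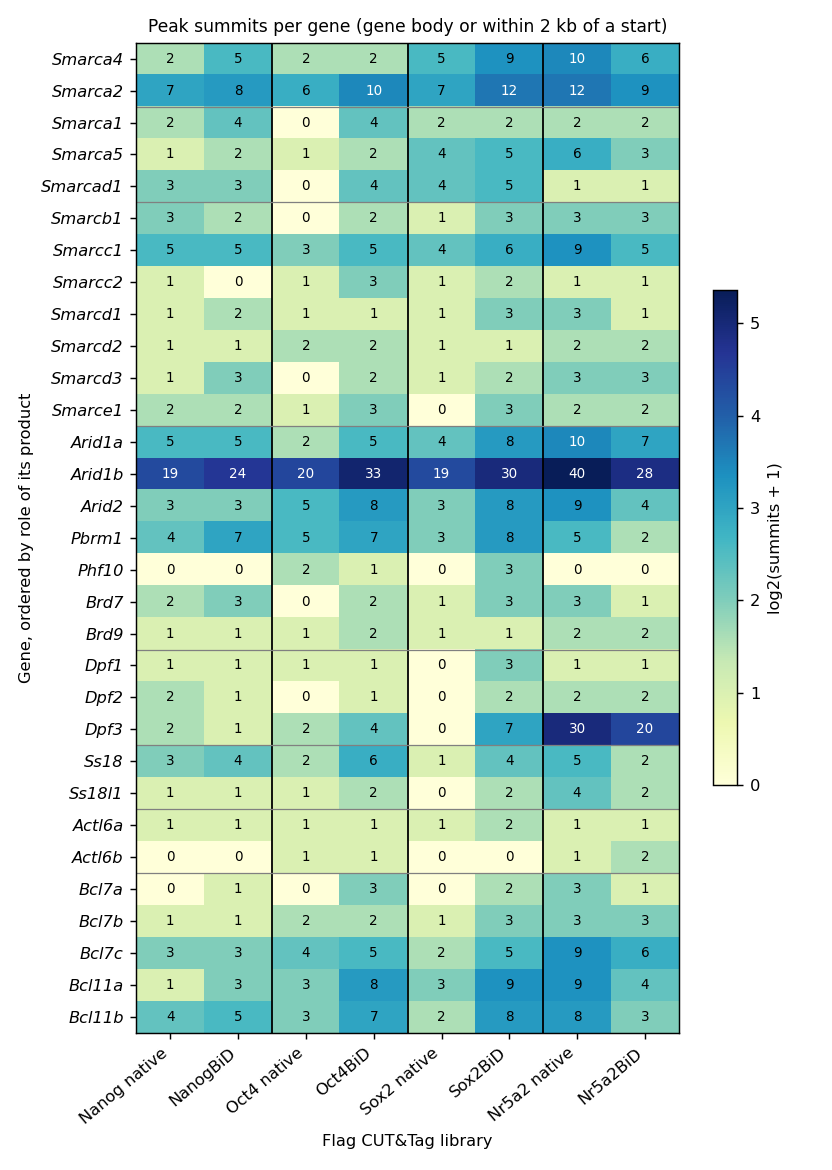
Number of peak summits at each of the 31 genes (rows, ordered by role) in each library (columns), with colour on a log2(summits + 1) scale. Arid1b is high in each library, from 19 to 40, and Dpf3 is high in the Nr5a2 libraries alone, with 30 and 20 summits against at most 7 elsewhere.

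Of the ATPases, Smarca4 (BRG1, chr9:21616169-21704230) held 2 summits with native Nanog and 5 with NanogBiD, 2 with each form of Oct4, 5 with native Sox2 and 9 with Sox2BiD, and 10 with native Nr5a2 and 6 with Nr5a2BiD. Its start had a peak in each library, with native and BiD heights of 30 and 42 tags for Nanog, 32 and 50 tags for Oct4, 18 and 30 tags for Sox2, and 38 and 37 tags for Nr5a2. The start of the gene for the ATPase that BiD binds thus had a peak with each factor in each form, and most differences in number lay away from it. NanogBiD had 4 summits away from the start where native Nanog had 1. An intronic site at chr9:21691285-21692808 had heights of 70 and 46 tags in the native and BiD Nr5a2 libraries and no peak with the other factors, and a site at chr9:21645771-21647003 had 53 and 52 tags with native Sox2 and Sox2BiD alone.

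Smarca2, which encodes the alternative ATPase BRM, held 7 summits with native Nanog and 8 with NanogBiD, 6 with native Oct4 and 10 with Oct4BiD, 7 with native Sox2 and 12 with Sox2BiD, and 12 with native Nr5a2 and 9 with Nr5a2BiD. It met the size rule for no factor. Between 3 and 7 of its summits per library were promoter summits, spread over its 42 annotated start sites. It had 2 regions with a peak in all 8 libraries, both within 2 kb of a start.

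Among the related ATPases, Smarca1 (SNF2L) had 2 summits with native Nanog and 4 with NanogBiD, none with native Oct4 and 4 with Oct4BiD, and 2 in each of the other 4 libraries. Its intron held 2 sites with peaks in NanogBiD and Oct4BiD only, of which the stronger had 39 and 19 tags and is the sequence shown above. Smarcad1 had 3 summits with each form of Nanog, none with native Oct4 and 4 with Oct4BiD, 4 with native Sox2 and 5 with Sox2BiD, and 1 with each form of Nr5a2. Smarca5 (SNF2H) had from 1 to 6 summits and was called lower with Nr5a2BiD, with 6 summits native and 3 BiD.

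The 7 core and scaffold genes, Smarcb1, Smarcc1, Smarcc2, Smarcd1, Smarcd2, Smarcd3 and Smarce1, held 14 summits with native Nanog and 15 with NanogBiD, 8 with native Oct4 and 18 with Oct4BiD, 9 with native Sox2 and 20 with Sox2BiD, and 23 with native Nr5a2 and 17 with Nr5a2BiD. Smarcc1, which encodes BAF155, the scaffold form prominent in embryonic stem cells, had from 3 to 9 summits and was called for no factor. Smarcc2, which encodes BAF170, had from 0 to 3. Peaks over the starts of Smarcd1 and Smarcd2 occurred in all 8 libraries, at 11 to 37 tags and at 18 to 55 tags. Smarcd3, which encodes the BAF60C subunit of heart and muscle, had an intronic site with 16 tags in NanogBiD, 16 in Oct4BiD and 53 in Nr5a2BiD and with no peak in a native library.

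The ARID and the PBAF or non-canonical subunits gave the largest group of summits. Arid1b (BAF250B, chr17) had the most of any gene in each library, with 19 for native Nanog and 24 for NanogBiD, 20 for native Oct4 and 33 for Oct4BiD, 19 for native Sox2 and 30 for Sox2BiD, and 40 for native Nr5a2 and 28 for Nr5a2BiD. It spans 355 kb with its flanks, the longest of the 31, and per 100 kb it held from 5.35 (native Nanog and native Sox2) to 11.3 summits (native Nr5a2). Between 17% and 34.9% of all protein-coding genes were at least as dense, depending on the library. Its difference between forms was the largest of any gene for each factor but stayed under 2-fold. At chr17:5006507-5008670, in an intron, the heights were 29 tags in NanogBiD, 32 in Oct4BiD, 22 in Sox2BiD and 18 in Nr5a2BiD, with no native peak. No site at these genes had the opposite pattern, which was met by 1 of the 306406 regions merged over all lists.

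Arid1a (BAF250A, chr4) held 5 summits with each form of Nanog, 2 with native Oct4 and 5 with Oct4BiD, 4 with native Sox2 and 8 with Sox2BiD, and 10 with native Nr5a2 and 7 with Nr5a2BiD. Its intron had a site, chr4:133727866-133730965, with a peak in all 8 libraries, with native and BiD heights of 62 and 71 tags for Nanog, 19 and 61 tags for Oct4, 25 and 52 tags for Sox2, and 62 and 75 tags for Nr5a2. In tags, which are not scaled to depth, the fusion was higher than the native form there for each factor. By the study's read totals, NanogBiD and Nr5a2BiD had more uniquely mapped read pairs than their native forms, and the part of depth was not tested.

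Arid2 and Pbrm1, which mark PBAF, had most of the other summits in this group. Arid2 had 3 summits with each form of Nanog, 5 with native Oct4 and 8 with Oct4BiD, 3 with native Sox2 and 8 with Sox2BiD, and 9 with native Nr5a2 and 4 with Nr5a2BiD. Pbrm1 (polybromo) had 4 with native Nanog and 7 with NanogBiD, 5 with native Oct4 and 7 with Oct4BiD, 3 with native Sox2 and 8 with Sox2BiD, and 5 with native Nr5a2 and 2 with Nr5a2BiD. Phf10 had no summit in the Nanog libraries, the native Sox2 library and the Nr5a2 libraries, 2 with native Oct4, 1 with Oct4BiD and 3 with Sox2BiD. Brd7 and Brd9 had from 0 to 3 summits per library.

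Among the double PHD finger subunits, which read histone tails, Dpf3 (chr12) differed most between factors. It held 2 summits with native Nanog and 1 with NanogBiD, 2 with native Oct4 and 4 with Oct4BiD, none with native Sox2 and 7 with Sox2BiD, and 30 with native Nr5a2 and 20 with Nr5a2BiD. Of the Nr5a2 summits, 27 of the 30 native and 18 of the 20 BiD lay away from a start site. At chr12:83325769-83329448 the heights were 81 tags with native Nr5a2 and 80 with Nr5a2BiD, against 9 with native Nanog and 13 with Sox2BiD, and at chr12:83270092-83272175 they were 68 and 70 with no peak for another factor. Dpf3 spans 276 kb with its flanks. By number, 0.648% of all protein-coding genes had as many summits in native Nr5a2, but by density, at 10.9 per 100 kb, 32.7% were as dense. In the libraries of Nanog, Oct4 and Sox2 it held from 0 to 2.54 per 100 kb, which at least 52.5% of all genes reached. Dpf1 had from 0 to 3 summits and Dpf2, the widely expressed member, from 0 to 2.

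**Figure D4:**
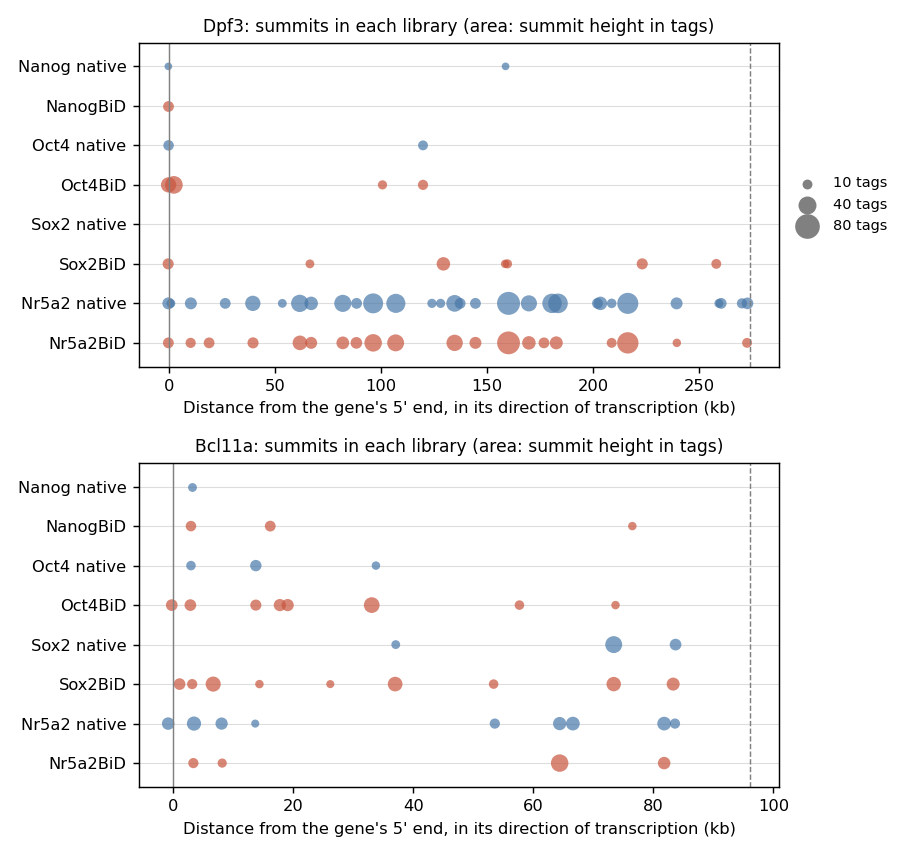
Summits at Dpf3 (top) and Bcl11a (bottom) in each library, by distance from the gene's 5′ end in kb (x axis), with point area in proportion to summit height in tags, native forms in blue and BiD in red. The solid and dashed lines are the gene's ends. Dpf3 shows 30 and 20 summits spread along the gene in the Nr5a2 libraries and at most 7 elsewhere, and Bcl11a shows more summits with the fusion for Nanog, Oct4 and Sox2 and fewer for Nr5a2.

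Ss18 was also examined separately, because the fusion vectors carry the coding sequence of its BiD stretch and their reads could map to its exons. Ss18 was kept in the totals, shares and calls of the gene list, except where it is said to be left out. It had 3 summits with native Nanog and 4 with NanogBiD, 2 with native Oct4 and 6 with Oct4BiD, 1 with native Sox2 and 4 with Sox2BiD, and 5 with native Nr5a2 and 2 with Nr5a2BiD. The BiD stretch maps to 3 coding segments of 69, 77 and 64 bases, and no summit lay in any of them in any library. A peak ran over the 69-base segment, which lies near the gene's start, in each library but native Sox2, so in native and BiD libraries alike, and none ran over the 77-base segment. A peak ran over the 64-base segment in NanogBiD, Oct4BiD and Nr5a2BiD and in no native library and not in Sox2BiD, with the nearest summit 208 bp away in NanogBiD, 134 bp in Oct4BiD and 1222 bp in Nr5a2BiD. A native library, Nr5a2, had its nearest summit 345 bp from the same segment. Whether vector reads widened those peaks was not tested. For comparison, the coding exons of the delivered factor's own gene held 4 summits in the Nanog libraries, 2 in the Sox2 libraries, 7 in the Nr5a2 libraries and none for Oct4, and 1 summit lay in a coding exon of another factor, Nanog, in Oct4BiD. Ss18l1, the neuronal paralogue (CREST), had from 0 to 4 summits.

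The BCL7 and BCL11 genes encode further subunits of BAF. Bcl11a, a zinc finger protein of neural and lymphoid cells, held 1 summit with native Nanog and 3 with NanogBiD, 3 with native Oct4 and 8 with Oct4BiD, 3 with native Sox2 and 9 with Sox2BiD, and 9 with native Nr5a2 and 4 with Nr5a2BiD. It was the 1 gene called higher with BiD for each of Nanog, Oct4 and Sox2, and it was called lower for Nr5a2. The Oct4BiD sequence shown above, with the octamer, is an intronic summit of 38 tags at 33.1 kb from the 5′ end of Bcl11a. The native Oct4 peak that overlaps it had its summit at 33.8 kb, with 11 tags and no octamer within 50 bp. Bcl11b held 4 with native Nanog and 5 with NanogBiD, 3 with native Oct4 and 7 with Oct4BiD, 2 with native Sox2 and 8 with Sox2BiD, and 8 with native Nr5a2 and 3 with Nr5a2BiD. Its strongest site of Oct4BiD without a native Oct4 peak, shown above, had 53 tags and no peak in the other libraries.

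Bcl7a had no summit in the native Nanog, Oct4 and Sox2 libraries. It had 1 with NanogBiD, 3 with Oct4BiD, 2 with Sox2BiD, 3 with native Nr5a2 and 1 with Nr5a2BiD. A peak at its start was present in NanogBiD at 17 tags, Oct4BiD at 15 and Sox2BiD at 14, in lists whose lowest heights were 7 or 8 tags. The summit of that peak was 23 bp from the start in NanogBiD and 12 bp in Sox2BiD. Bcl7b had from 1 to 3 summits and Bcl7c from 2 to 9.

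Peaks at these genes were merged across libraries into 414 regions. Peaks came from 1 library in 184 of them, or 44.4%, where the share over all 306406 merged regions of the 8 lists was 46%. In 111, or 26.8%, the peaks were those of the native and BiD form of 1 factor alone, against 25.5% of all regions. A peak in all 8 libraries was found in 10 regions, or 2.42% against 1.49%, and 8 of the 10 were at a start site. Both forms of Nr5a2 and no other factor had a peak in 64 regions, or 15.5% against 10.1% of all regions, and 16 of the 64 were in Dpf3. The same pattern held in 17 regions for Sox2 (4.11% against 6.62%), 18 for Oct4 (4.35% against 5.03%) and 12 for Nanog (2.9% against 3.78%). Regions with peaks in at least 2 BiD libraries and in no native one numbered 9 (2.17% against 2.18%), and those with peaks in at least 2 native libraries and no BiD library numbered 2 (0.483% against 0.473%), both in Arid1b. The pattern of the Arid1b site shown above, all 4 fusions and no native factor, was met by 27 regions over all lists.

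The form with fewer peaks mostly shared its peaks with the other form. At the 31 genes 84.1% of native Nanog peaks overlapped a NanogBiD peak (95% interval 74.4 to 91.3), and 66.7% of NanogBiD peaks overlapped a native one (56.6 to 75.7). For Oct4 the shares were 81.9% of native peaks (71.1 to 90) and 41% of BiD peaks (32.7 to 49.7). For Sox2 they were 88.9% (79.3 to 95.1) and 39.8% (32.1 to 47.8), and for Nr5a2 61.3% (54.2 to 68.1) and 92.2% (86.2 to 96.2). Over all peaks of the same libraries the native and BiD shares were 60.7% and 86% for Nr5a2, 86.3% and 41.4% for Sox2, 73.1% and 42.4% for Oct4, and 72.7% and 70.1% for Nanog. The intervals of the 31 genes held the value of all peaks in 6 libraries and lay above it in native Nanog and Nr5a2BiD. With each list limited to its 20000 highest scores, native and BiD shares were 75% and 73.2% for Nr5a2, 58.3% and 56% for Sox2, 51.9% and 60.9% for Oct4, and 75% and 62.1% for Nanog. On these lists of equal length the share was higher with BiD for Oct4 and lower with BiD for Nanog. The shares for Sox2 and for Nr5a2 lay close together. These lists leave fewer peaks at the genes and no intervals were made, so the order of the forms is not resolved for any factor.

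**Figure D5:**
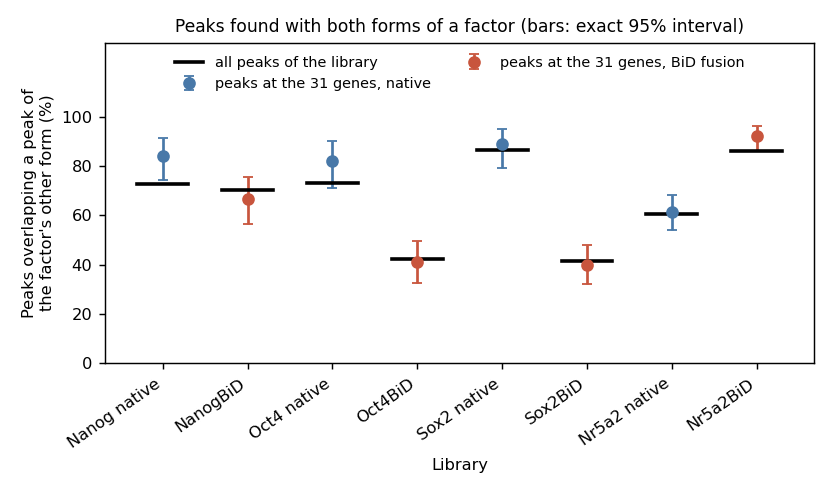
Share of peaks that overlap, by at least 1 bp, one found with the factor's other form (y axis, %), at the 31 genes (points with exact 95% intervals for counting error, native in blue and BiD in red) and over all peaks of the library (black lines). For Oct4 and Sox2 the native shares, 81.9% and 88.9%, are above those of the fusions, 41% and 39.8%, and for Nr5a2 the native share is the lower, at 61.3% against 92.2%.

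Where both forms had a peak, the fusion's was mostly the higher for Nanog, Oct4 and Sox2 and lower for Nr5a2. The height was greater with BiD in 32 of 119 shared regions for Nr5a2, 50 of 61 for Sox2, 40 of 56 for Oct4 and 58 of 68 for Nanog. Over all shared native peaks it was greater with BiD in 31.5%, 68.4%, 70.6% and 66.6% in that order. The units differ, since these are single native peaks, while the regions are merged across all 8 libraries and take each library's highest summit. The median log2 ratio of heights, BiD over native, was -0.25 for Nr5a2, 0.51 for Sox2, 0.51 for Oct4 and 0.46 for Nanog. Over all shared native peaks it was -0.18, 0.33, 0.44 and 0.26 in that order. Heights are not scaled to depth, so the part that depth has in these ratios was not tested, and the regions share 1 library per form.

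The own-factor consensus lay within 50 bp of few summits at these genes. It was present at 22 of 199 summits for native Nr5a2, or 11.1% (7.06 to 16.3) against 11% over all summits, and at 11 of 129 for Nr5a2BiD, or 8.53% (4.33 to 14.7) against 7.89%. For Oct4 it was present at 3 of 72 native summits, or 4.17% against 4.17%, and at 7 of 139 BiD summits, or 5.04% (2.05 to 10.1) against 9.72%. For Sox2 it was present at 2 of 72 native summits, or 2.78% (0.338 to 9.68) against 1.9%, and at 2 of 161 BiD summits, or 1.24% (0.151 to 4.42) against 3.29%. For Nanog it was present at 0 of 82 native summits, which allows up to 4.4%, against 1.7%, and at 2 of 102 BiD summits, or 1.96% (0.238 to 6.9) against 2.55%. The interval held the value over all summits in each library, and for Oct4BiD and Sox2BiD the share at these genes was the lower by the widest margins.

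A fixed list of 26 other genes was compared, 24 of other remodellers (the CHD, ISWI partner, INO80 and related families) and 2, Bicra and Bicral, whose products are subunits of non-canonical BAF. They differed between forms in the same directions. On unscaled numbers 1 of them was called higher with BiD and 9 lower for Nr5a2, against 0.308% and 11.7% of all genes. For Sox2 it was 15 and 0, against 26.9% and 0.110%. For Oct4 it was 13 and 0, against 17.3% and 0.446%, and for Nanog 3 and 1, against 4.01% and 1.56%. The log2 ratio of summits per 10000 peaks at the 26 genes was -0.11 for Nr5a2, 0.22 for Sox2, 0.23 for Oct4 and 0.22 for Nanog. At the 31 genes it was -0.12, 0.11, 0.17 and 0.27 in that order.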

How the data were processed

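Peak lists of 8 Flag CUT&Tag libraries were used. The submitters' processing notes name Trim Galore 0.6.4, Bowtie2 2.4.5 with build mm10, SAMtools 1.16.1 and MACS 1.4.2. By the methods, repetitive and mitochondrial reads and those with a mapping quality under 30 were removed before peaks were called. Repeated sequence and near-identical gene copies therefore lack peaks. As the authors deposited it, the score of a peak is -10 × log10 of its p-value from MACS, at least 50 here. The other deposited value is a signal, the whole tags at a summit, and has no scaling to depth. No control library is named.

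Genes and start sites came from the comprehensive GENCODE M21 annotation. Summits were counted per gene with Python 3.11.15, NumPy 2.4.6 and SciPy 1.17.1, and the counting was tested on simulated data. Ratio and share intervals are exact 95% intervals. The members, lists and rules were chosen with earlier results of these data known. Values in all 8 libraries are given for Smarca4, Smarca2, Arid1a, Arid1b, Ss18 and the 3 genes with the largest difference per factor, and for others where a result turns on them. Alternatives were the top 20000 peaks, a score of at least 100, other distances, other overlap and motif windows, scaled numbers and members left out. A marker list and 1 sequence are not reported here.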

Additional observations from a re-analysis of the deposited data

Results flagged for a closer look

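The direction of the BiD difference was opposite in Nr5a2 to that in Nanog, Oct4 and Sox2. The log2 ratio of summits at the 31 genes, BiD over native, was -0.63 for Nr5a2 and positive for the other factors. The difference between factors was not tested, since each form had 1 library, and the number of peaks in the lists had the same signs.

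At 9 genes the size rule called the gene lower with BiD for Nr5a2 and higher for at least 1 other factor, a pattern met by 7.07% of all protein-coding genes. The difference in summits for Nr5a2, BiD minus native, was -5 at Arid2, Bcl11a and Bcl11b, -3 at Pbrm1 and Ss18, and -2 at Smarcd1, Brd7, Ss18l1 and Bcl7a. Bcl11a was called higher for Nanog, Oct4 and Sox2, Ss18, Brd7, Bcl7a and Bcl11b for Oct4 and Sox2, and Smarcd1, Arid2, Pbrm1 and Ss18l1 for Sox2. None of these 9 was called for any factor on numbers scaled to the shorter list, and the differences between factors were not tested.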

How the results depend on the processing

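The log2 ratio of summits per 10000 peaks stayed within its main interval in 35 of 36 alternatives; with promoter summits only it was 0.56 for Sox2. Its sign, where the main interval holds 0 for each factor, held in 8 of 9 alternatives for Nanog (-0.01 to 0.32), 7 of 9 for Oct4 (-0.23 to 0.28), 9 of 9 for Sox2 (0.04 to 0.56) and 7 of 9 for Nr5a2 (-0.17 to 0.04). Numbers of genes called depended on list length. On the top 20000 peaks of each list 2 genes were called higher for Nanog, 0 for Oct4 and 0 for Sox2, and 0 were lower for Nr5a2. With scores of at least 100, 11 were higher for Sox2 and 3 lower for Nr5a2. Scaled to the shorter list, 1 was higher for Nanog, 2 for Oct4 and 1 for Sox2, and 0 lower for Nr5a2.

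On the top 20000 peaks, genes with a promoter summit numbered 7 with native Nanog, 9 with NanogBiD, 9 with native Oct4 and 7 with Oct4BiD. On the same lists they numbered 4 with native Sox2, 4 with Sox2BiD, 12 with native Nr5a2 and 16 with Nr5a2BiD. With scores of at least 100 they numbered 17 with native Nanog, 20 with NanogBiD, 10 with native Oct4 and 17 with Oct4BiD. At that score there were 5 with native Sox2, 22 with Sox2BiD, 20 with native Nr5a2 and 21 with Nr5a2BiD. Within 5 kb of a start they numbered 20 with native Sox2 and 30 with Sox2BiD. The first 2 settings keep fewer peaks. The wider Sox2 difference between forms, 13 and 29 genes over the whole lists, was absent on the top 20000 peaks, where few genes were left. It was present with scores of at least 100, at 5 and 22 genes.

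Shares found with both forms, on the top 20000 peaks, were 51.9% for native Oct4, 60.9% for Oct4BiD, 58.3% for native Sox2, 56% for Sox2BiD, 75% for native Nr5a2 and 73.2% for Nr5a2BiD. With summits required within 100 bp they were 56.1% for native Nanog, 45.1% for NanogBiD, 56.9% for native Oct4, 29.5% for Oct4BiD, 65.3% for native Sox2, 29.2% for Sox2BiD, 47.7% for native Nr5a2 and 73.6% for Nr5a2BiD. The own motif, on the top 20000 peaks, was at 0% of summits for NanogBiD, 0% for native Oct4 and 13% for Oct4BiD, with scores of at least 100 at 0% for native Oct4, in windows of 25 bp at 3.52% for native Nr5a2 and 3.1% for Nr5a2BiD, and in windows of 100 bp at 18.1% for native Nr5a2. The shares and motif values on the top 20000 peaks rest on fewer peaks and have no intervals. Leaving out Ss18, or Smarca1, Smarca5 and Smarcad1, moved no main result past its interval or, for counts, by over 1.5 times. Leaving out Dpf3 was chosen after seeing the data. No paired analysis was possible because no replicate numbers are shared, each group holding 1 library, and no test over the 4 factors as pairs was made.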
